A study of Mus musculus with 12 samples.

Results

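Disease-associated microglia genes are a group of transcripts that mononuclear phagocytes raise in damaged or degenerating nervous tissue, and 10 of them were followed here in the retinal pigment epithelium (RPE) of 1-mo WT and rd6 mice. The genes were *Trem2*, *Tyrobp*, *Clec7a*, *Itgax*, *Cst7*, *Cd68*, *Gpnmb*, *Spp1*, *Lgals3* and *Lpl*, taken by symbol from the 28591 genes of the deposited table. All 10 were found, and all passed the filter of a mean of at least 10 normalized counts that left 17768 genes for testing. The WT group was 6 C57BL/6J mice and the rd6 group was 6 mice homozygous for the rd6 allele (*Mfrp* rd6/rd6), all 1 mo old and untreated as far as the labels say. rd6 is a germline mutation of *Mfrp*, so it is carried by every cell of the animal and not by the RPE alone, and the labels give the background strain for WT alone. After the anterior segment and neural retina had been dissected away, RPE was collected from the eyecup in a solution that preserves RNA, and both eyes were combined into a single total-RNA library per sample.

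In the programme as it is known from brain, TREM2 is a surface receptor that binds lipids, lipoproteins and cell debris, and it signals through the adaptor TYROBP (DAP12). Phagocytes that engage it lose part of their resting-state transcripts and raise genes of phagocytosis, lysosomes and lipid handling. In the eye the relevant cells are retinal microglia, which can enter the space between photoreceptors and RPE, and macrophages of the choroid, the vascular layer behind the RPE that remains in an eyecup. Several of the genes are not limited to phagocytes, since *Gpnmb* is also made by pigment cells, *Lgals3* by surface epithelia, and *Lpl* and *Spp1* by other cells of the body.

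The 12 libraries held between 28907262 and 33152725 reads counted on genes, and the size factors used by the authors differed by at most 1.23 times between libraries. A floor of 3 reads was worth between 2.71 and 3.32 normalized counts, which covers counting error only. *Mfrp* itself, the mutated gene, ranged from 30132 to 45442 normalized counts in WT and from 20442 to 29732 in rd6, without overlap, and a protein-coding gene on the same strand shares part of its exons. RPE markers were at high levels in all 12 libraries, their sum ranging from 1508054 to 2277321 normalized counts in WT and from 1425823 to 1918226 in rd6, and 2 of 10 were called lower (*Lrat*, retinol esterification, and *Rgr*, a retinal-binding opsin). At an unadjusted p below 0.05, 0 were higher and 6 lower in limma, and 1 higher and 6 lower in edgeR and in DESeq2. The list median was -0.35 on the log2 scale. Libraries also differed in RNA from other parts of the eye, above all in keratins of the ocular surface. *Krt5* ranged from 0 to 63798 normalized counts in WT and from 201 to 35506 in rd6, and these libraries are taken up where *Lgals3* is described.

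Promoter windows from RefSeq (GRCm38.p6, 250 bases before to 50 after the transcript start, on the gene's strand) were matched by symbol for 8 of the 10 genes, and 4 are printed because their genes span the range from the largest to among the smallest of the called rises. Motifs searched on both strands were GAGGAAG, the core bound by PU.1 and related ETS factors of myeloid cells; TGAGTCA, bound by AP-1; and TCACGTG and TCATGTG, boxes bound by the MiT/TFE factors of pigment cells and lysosomal genes. Capitals mark a match, written as CTTCCTC or TGACTCA where it lies on the opposite strand. The window of *Cst7* lies at chr2:150570165-150570464 (+ strand), that of *Trem2* at chr17:48346151-48346450 (+ strand), that of *Gpnmb* at chr6:49036268-49036567 (+ strand) and that of *Cd68* at chr11:69666121-69666420 (- strand).
Cst7: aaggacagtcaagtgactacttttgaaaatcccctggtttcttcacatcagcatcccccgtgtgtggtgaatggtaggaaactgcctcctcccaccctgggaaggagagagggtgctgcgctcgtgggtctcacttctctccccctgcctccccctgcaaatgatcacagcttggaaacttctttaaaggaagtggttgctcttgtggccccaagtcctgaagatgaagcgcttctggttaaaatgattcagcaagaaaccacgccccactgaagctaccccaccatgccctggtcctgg
Trem2: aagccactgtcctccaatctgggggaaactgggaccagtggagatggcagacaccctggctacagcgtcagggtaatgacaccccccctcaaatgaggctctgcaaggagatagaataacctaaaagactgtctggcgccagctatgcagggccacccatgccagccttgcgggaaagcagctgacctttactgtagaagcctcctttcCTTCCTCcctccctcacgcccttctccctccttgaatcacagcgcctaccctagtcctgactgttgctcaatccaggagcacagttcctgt
Gpnmb: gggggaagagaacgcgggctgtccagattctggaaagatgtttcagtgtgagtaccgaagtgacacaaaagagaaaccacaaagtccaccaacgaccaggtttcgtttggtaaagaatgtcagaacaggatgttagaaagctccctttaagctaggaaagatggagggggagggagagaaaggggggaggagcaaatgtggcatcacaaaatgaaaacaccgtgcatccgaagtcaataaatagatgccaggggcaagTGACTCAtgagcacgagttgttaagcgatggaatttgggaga
Cd68: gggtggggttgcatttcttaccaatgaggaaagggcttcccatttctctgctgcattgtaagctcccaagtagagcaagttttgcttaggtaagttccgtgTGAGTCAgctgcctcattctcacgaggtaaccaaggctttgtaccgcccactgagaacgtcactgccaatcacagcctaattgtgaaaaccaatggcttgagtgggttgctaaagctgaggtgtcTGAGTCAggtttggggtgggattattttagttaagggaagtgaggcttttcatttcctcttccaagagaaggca

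GAGGAAG was present in the windows of *Trem2* and of the first of 2 starts of *Spp1*, that is in 2 of 8 genes, against 13.6% of 32851 promoter windows of the mouse. TGAGTCA was present in the windows of *Itgax*, *Gpnmb* and *Cd68*, with 2 copies in *Cd68*, that is in 3 of 8 genes against 5.2% of all windows. Neither TCACGTG nor TCATGTG, each found in 3.77% of all windows, occurred in any of the 8, and none of the matches overlapped another. A match describes these letters in this window only. The window of *Cst7*, the gene with the largest rise, held none of the 4 motifs.

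Of the 10 genes, 9 were called higher in rd6 and none was called lower. A call required *q* (the limma p adjusted by Benjamini-Hochberg over all genes tested) below 0.05 and a difference of 1.75-fold or more on log2(normalized counts + 1). Across all genes tested 4.69% were called higher and 2.12% lower, 6.8% in either direction. Since the libraries are bulk, more cells of a type and more RNA per cell cannot be told apart in any of these differences. None of the 10 was lower at an unadjusted p below 0.05 either, and edgeR and DESeq2 on the recovered reads likewise called 9 higher and 0 lower. In 8 of the 10 the rd6 values all exceeded the WT values, where 5.77% of all genes were separated in this direction and 5.67% in the other. The exact permutation test over the 924 splits of 12 libraries gave p = 0.00216 for each of these 8, the smallest that 6 against 6 allow. The median log2 fold change of the 10 genes was 2.57, and that of all genes tested was 0.0049. The genes were chosen with earlier results of these data known, so their count describes them and is no independent evidence. No label says whether animals of a group came from separate litters, and p-values measure only the spread between these samples.

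**Figure D1:**
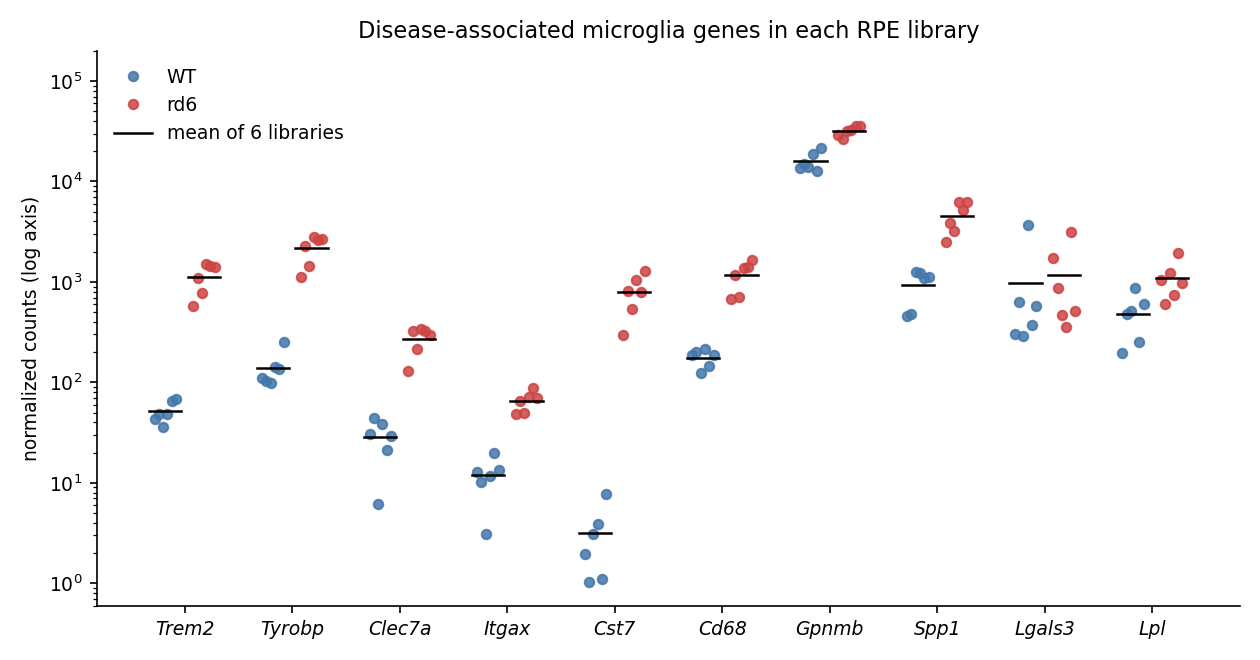
Normalized counts (log axis) of the 10 genes in each of 6 WT libraries (blue) and 6 rd6 libraries (red), with horizontal lines at the group means. The 2 colours do not overlap for 8 genes, whereas *Lgals3* and *Lpl* share part of their range, and *Cst7* moves from a mean of 3.14 in WT to 793 in rd6.

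The receptor *Trem2* (ENSMUSG00000023992, GRCm38 chromosome 17, 48346401 to 48354147, + strand) was low in WT and abundant in rd6. The WT libraries, from replicate 1 to 6, gave 43.4, 48.5, 36.3, 48.6, 65.3 and 67.7 normalized counts. The rd6 libraries, in the same order, gave 574, 1097, 770.2, 1493, 1427 and 1402. The lowest rd6 library was thus well above the highest WT library, and the 3 highest, rd6 replicates 4 to 6, lay close together. The log2 fold change was 4.37 (SE 0.24, limma *q* = 1.03e-07), or 20.7-fold, which placed *Trem2* at rank 12 among the rises of all genes tested.

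*Tyrobp*, which encodes the adaptor that carries the TREM2 signal into the cell (ENSMUSG00000030579, chromosome 7, 30413760 to 30417585, + strand), moved with its receptor. The WT libraries had 109, 102, 99.6, 141, 135 and 253 normalized counts, and the rd6 libraries had 1127, 2297, 1426, 2791, 2613 and 2681. WT replicate 6 stood above the other WT libraries, and the groups did not overlap. The fold change was 15.3 (log2 fold change 3.94, SE 0.27, limma *q* = 6.3e-07).

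*Clec7a* encodes Dectin-1, a C-type lectin receptor for beta-glucans that is also a marker of activated microglia (ENSMUSG00000079293, chromosome 6, 129461591 to 129472779, - strand; the annotation lists it as a polymorphic pseudogene). It had 30.6, 44.4, 6.22, 38.8, 21 and 29 normalized counts in WT and 131, 325, 214, 338, 326 and 293 in rd6. WT replicate 3 was lowest, at only 6 reads, and rd6 replicate 1 was the lowest of its group. The groups were separated, with a log2 fold change of 3.35 (SE 0.40, limma *q* = 8.1e-05).

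*Itgax*, which encodes CD11c, an alpha subunit of beta2 integrins (ENSMUSG00000030789, chromosome 7, 128129547 to 128150657, + strand), was near the limit of detection in WT and remained the least abundant of the 10 per length in rd6. Its WT values were 12.8, 10.3, 3.11, 11.7, 19.9 and 13.5 normalized counts, resting on 3 to 18 reads. Its rd6 values were 48.4, 64.9, 49.3, 71.6, 87.6 and 69.6. All rd6 libraries were above all WT libraries, by 5.58-fold in the fit (log2 fold change 2.48, SE 0.33, limma *q* = 0.000181).

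*Cst7*, which encodes cystatin F, an inhibitor of lysosomal cysteine proteases (ENSMUSG00000068129, chromosome 2, 150570415 to 150578944, + strand), was almost undetected in WT. The 6 WT libraries had 1 to 8 reads each, or 1.97, 1.03, 3.11, 3.88, 1.11 and 7.73 normalized counts. The rd6 libraries had 296, 810.2, 539, 1034, 796 and 1284. WT values straddled the floor of 3 reads, so the size of the rise depended on the added 1, the log2 fold change running from 5.81 to 8.13 over the alternatives around the main value of 7.64 (SE 0.41, limma *q* = 7.6e-08). The ratio of the group means was 253, from 3.14 ± 2.51 to 793 ± 350 (SD, n = 6). The other cystatins did not share this: of 5 tested, *Cst7* alone was called, and *Cst3*, the abundant secreted cystatin C (chosen after its values were seen), had means of 310480.4 in WT and 309972 in rd6.

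Among cysteine cathepsins and legumain, the proteases that cystatins inhibit, 3 of 11 were called higher and 0 lower (limma; 9 were higher and 0 lower at an unadjusted p below 0.05, and edgeR and DESeq2 each called 3 higher and 0 lower), with a list median of 0.54 on the log2 scale. *Ctss*, the cathepsin typical of myeloid cells, led them with a log2 fold change of 3.84 (SE 0.26, limma *q* = 4.9e-07), from a range of 249 to 591 normalized counts in WT to 2688 to 7294 in rd6. *Ctsk*, a cathepsin that cleaves collagen, had a log2 fold change of 1.09 (SE 0.07). *Ctsw*, a cathepsin of cytotoxic lymphocytes, had one of 0.91 (SE 0.28) and was scarce, with a mean of 10.6 normalized counts in WT.

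*Cd68*, a heavily glycosylated protein of phagocyte lysosomes and endosomes (ENSMUSG00000018774, chromosome 11, 69664213 to 69666153, - strand), had 186, 201, 125, 214, 147 and 186 normalized counts in WT. In rd6 it had 682, 1182, 715, 1390.2, 1411 and 1648. WT libraries varied little, by 1.70 times from lowest to highest, and none came near the rd6 libraries. The log2 fold change was 2.67 (SE 0.23, limma *q* = 3.6e-06).

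*Gpnmb*, a transmembrane glycoprotein of lysosomes and melanosomes (ENSMUSG00000029816, chromosome 6, 49036546 to 49070929, + strand), was by far the most abundant of the 10 in WT and doubled in rd6. It had 13720.5, 14786, 13880.5, 18842, 12657 and 21697 normalized counts in WT, and 29050.0, 26455, 31982, 32227, 35963 and 35993 in rd6. The lowest rd6 library, replicate 2, still exceeded the highest WT library, replicate 6. The log2 fold change of 1.02 (SE 0.13, limma *q* = 0.00013) was the smallest among the 9 called genes, although it was the largest rise in counts. Melanocyte markers, of which 8 were tested, had 0 called higher and 0 called lower (limma, edgeR and DESeq2; in limma 2 were higher and 4 lower at an unadjusted p below 0.05), and their sum was 95628 to 128966 normalized counts in WT and 123221 to 154599.6 in rd6. Of *Pmel*, the closest relative of *Gpnmb*, and the MiT/TFE factors *Mitf*, *Tfeb* and *Tfe3*, 0 were called (limma, edgeR and DESeq2; in limma 2 were higher and 1 lower at an unadjusted p below 0.05). The part of these cells in the *Gpnmb* level was not tested.

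*Spp1*, the secreted glycoprotein osteopontin (ENSMUSG00000029304, chromosome 5, 104435118 to 104441050, + strand), had 463, 481, 1266, 1218, 1088 and 1113 normalized counts in WT, so that WT replicates 1 and 2 lay below the other 4. In rd6 it had 2523, 3898, 3243, 6259.5 and 5155 in replicates 1 to 5 and 6307 in replicate 6. The groups did not overlap, with a log2 fold change of 2.32 (SE 0.31, limma *q* = 0.000193). An unreviewed transcript model on the same strand shares part of its exons, so the division of reads there is uncertain. Of 9 osteopontin receptor genes, 8 integrin subunits and *Cd44*, 0 were called in either direction (limma, edgeR and DESeq2; 1 was higher and 3 lower at an unadjusted p below 0.05 in each). Those 3 include both subunits of the vitronectin receptor, chosen after their values were seen: *Itgav* had a log2 fold change of -0.57 (SE 0.11, limma *q* = 0.00258) and *Itgb3* of -0.65 (SE 0.12, limma *q* = 0.00177), below the limit of 1.75-fold.

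*Lgals3*, the beta-galactoside-binding lectin galectin-3 (ENSMUSG00000050335, chromosome 14, 47367751 to 47386160, + strand), was the only gene of the 10 that was not called. Its WT values were 302, 632, 292, 3716, 373 and 572 normalized counts, and its rd6 values were 1721, 867, 467, 356, 3121 and 514. The groups overlapped throughout, WT replicate 4 being the highest of all 12 libraries. The log2 fold change was 0.53 (SE 0.66, limma *q* = 0.607; two-sided exact permutation p = 0.485 for 6 against 6).

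The spread of *Lgals3* went with keratins of the ocular surface, an epithelium that makes galectin-3. The sum of 9 markers of that epithelium, a list chosen after the data were seen, was 213503 normalized counts in WT replicate 4, 88879 in rd6 replicate 5 and 53978 in rd6 replicate 1, and between 368 and 18987 in the other 9 libraries. These 3 libraries were the 3 highest for *Lgals3*. Without them the mean of *Lgals3* was 434 ± 158 in the 5 remaining WT libraries and 551 ± 221 in the 4 remaining rd6 libraries (± SD, normalized counts), with a log2 fold change of 0.34 (SE 0.29, limma *q* = 0.439), while the other 9 genes were all still called higher and the same 8 remained separated. As the 3 libraries left out were the highest for *Lgals3*, its smaller spread without them follows from the choice, and the part of these cells in its level was not tested. Among the 10 galectin genes, 1 was called higher and 0 lower (limma, edgeR and DESeq2; 3 were higher and 1 lower at an unadjusted p below 0.05 in each). It was *Lgals9*, which encodes galectin-9, with a log2 fold change of 1.2 (SE 0.15, limma *q* = 8.5e-05) and all rd6 libraries, from 396 to 555 normalized counts, above all WT libraries, from 141 to 267.

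**Figure D2:**
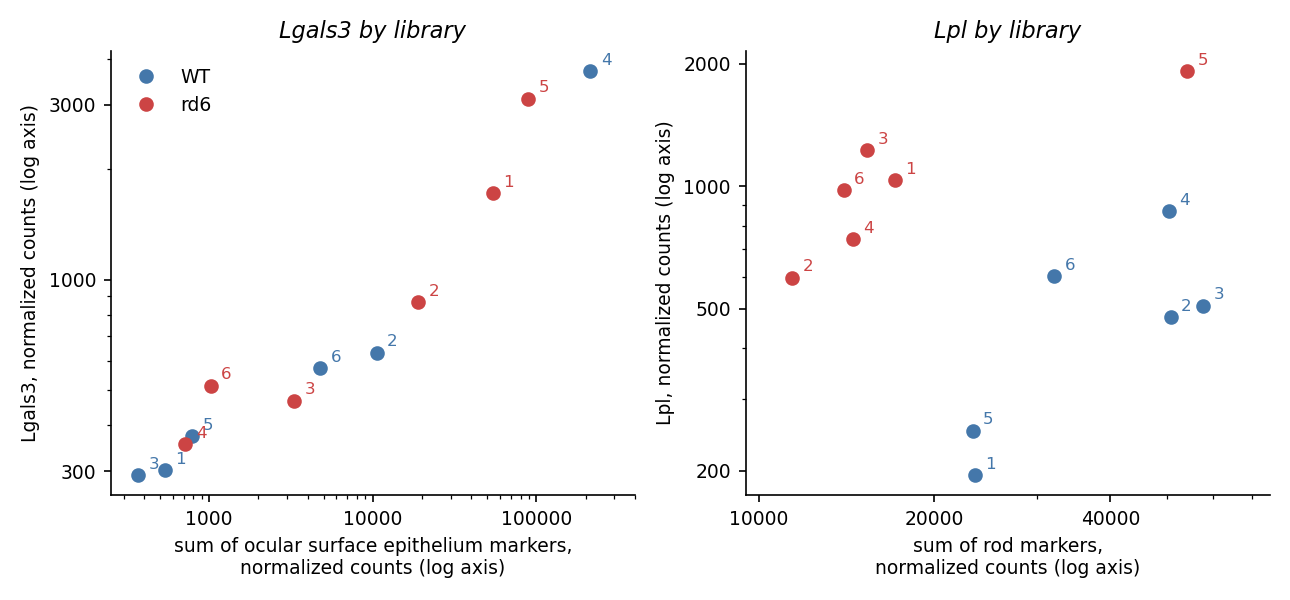
Left, *Lgals3* against the sum of 9 ocular surface epithelium markers; right, *Lpl* against the sum of 10 rod markers, with normalized counts on log axes, 1 point per library and its replicate number beside it. *Lgals3* is highest in WT replicate 4 (3716), rd6 replicate 5 (3121) and rd6 replicate 1 (1721), whichever the genotype, and rd6 replicate 5, whose rod sum is near that of WT replicates 2 to 4, has more *Lpl* (1921) than any of them.

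*Lpl*, the secreted lipoprotein lipase that frees fatty acids from triglyceride-rich lipoproteins (ENSMUSG00000015568, chromosome 8, 68880491 to 68907448, + strand), rose less surely than the genes above. It had 195, 478, 509, 870.2, 251 and 602 normalized counts in WT and 1037, 597, 1227, 743, 1921 and 979 in rd6. In 4 of 6 rd6 libraries it exceeded the highest WT library, replicate 4, and rd6 replicates 2 and 4 fell within the WT range. The log2 fold change was 1.23 (SE 0.36, limma *q* = 0.0265; two-sided exact permutation p = 0.0108 for 6 against 6). The call rested on single libraries, since limma *q* was 0.0517 without WT replicate 1, 0.0525 without WT replicate 5, 0.0545 without rd6 replicate 3 and 0.0509 without rd6 replicate 5. In the same order the log2 fold change was 1.01, 1.08, 1.18 and 1.05 in these fits.

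RNA from photoreceptors and from the ocular surface also differed between these libraries. The sum of 10 rod markers was 23478, 50763, 57745, 50455, 23266 and 32091 normalized counts in WT and 17104, 11411, 15320.3, 14495, 54180.0 and 13978 in rd6. WT replicates 1 and 5, the lowest for *Lpl*, were also the lowest for rods, and rd6 replicates 5 and 2, the highest and lowest of that group for *Lpl*, were so for rods too. The order was not the same throughout, since WT replicate 3, the highest WT library for rods, had less *Lpl* than WT replicates 4 and 6. WT replicate 4 and rd6 replicate 5, the highest of their groups for *Lpl*, were also the highest of their groups in the sum of ocular surface markers, and without the 3 libraries highest in those markers the log2 fold change of *Lpl* was 1.19 (limma *q* = 0.0276). Between the genotypes the rod markers went the other way, 2 of 10 called lower with a list median of -0.96, while edgeR called 0 of them (0 higher and 5 lower at an unadjusted p below 0.05) and DESeq2 called 2 lower. The part of photoreceptor RNA in the *Lpl* values was not tested.

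Genes that process, anchor or regulate lipoprotein lipase had calls in both directions. Of 11 tested, 2 were called higher and 1 lower (limma, and likewise edgeR and DESeq2), where 4.69% and 2.12% of all genes were, with a list median of 0.03 on the log2 scale. *Angptl4*, a secreted inhibitor of the lipase, fell, with a log2 fold change of -1.87 (SE 0.37, limma *q* = 0.00325), from 956, 1239.6, 2678, 1997, 3159 and 3297 normalized counts in WT to 575, 449, 583, 298, 455 and 1347 in rd6. Only rd6 replicate 6 reached the WT range. *Apoc1* and *Apoc3*, exchangeable apolipoproteins that hinder the lipase or the uptake of its remnants, were higher, with log2 fold changes of 2.54 (SE 0.46, limma *q* = 0.0017) and 0.93 (SE 0.22, limma *q* = 0.00831). *Apoc1* was between 16.8 and 32 normalized counts in 5 WT libraries, 172 in WT replicate 4 and between 120.1 and 308 in rd6. The genes for the maturation factors and the endothelial anchor, *Lmf1*, *Lmf2*, *Sel1l* and *Gpihbp1* (chosen after their values were seen), had log2 fold changes of 0.03, -0.01, -0.24 and 0.63, and *Sel1l* alone had limma *q* below 0.05, at 0.0323.

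The wider set of phagocyte lipid genes (scavenger and lipoprotein receptors, fatty acid-binding proteins, droplet proteins, esterases, sterol transporters and their nuclear receptors) moved in both directions. Of 31 tested, 1 was called higher and 0 lower in limma, a share near the 4.69% and 2.12% of all genes. At *q* below 0.05 without the fold limit 6 were higher and 4 lower, where 11.4% and 11.6% of all genes were, and 12 were higher and 6 lower at an unadjusted p below 0.05. The list median was 0.14 on the log2 scale. The call was *Fabp5*, a fatty acid-binding protein of phagocytes and of surface epithelia. *Fabp5* had a log2 fold change of 2.42 in limma (SE 0.59, limma *q* = 0.0108), 1.62 in edgeR and 1.61 in DESeq2. It had 23.7, 84.6, 45.6, 571, 47.6 and 67.7 normalized counts in WT and 417, 361, 233, 416, 719.6 and 420.5 in rd6, WT replicate 4 again standing apart. The count depended on tool and library: edgeR called 0 (9 higher and 6 lower at an unadjusted p below 0.05; *Fabp5* q = 0.11), DESeq2 called 0 higher and 1 lower, and limma called 3 without WT replicate 4 and 2 without WT replicate 5. Smaller changes passed the test alone, of which the following were chosen after their values were seen. *Soat1*, which esterifies cholesterol for storage, had a log2 fold change of 0.56 (SE 0.07, limma *q* = 9.4e-05), and *Abca1*, which exports it, of -0.63 (SE 0.07, limma *q* = 5.8e-05). *Apoe*, the carrier of exported lipid and a disease-associated microglia gene itself, had means of 205537 normalized counts in WT and 272214 in rd6 (log2 fold change 0.40, SE 0.12, limma *q* = 0.0278).

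Signalling genes downstream of or related to *Trem2* and *Tyrobp* rose in number. Of 23 tested, 12 were called higher and 0 lower (limma; 15 higher and 1 lower at an unadjusted p below 0.05, with 11 called higher by edgeR and 13 by DESeq2, and 0 lower by either), and the list median was 1.10. *Treml2*, a related receptor, had the largest log2 fold change, 3.96 (SE 0.47), from 0 to 6.19 normalized counts in WT to 25.2 to 68.7 in rd6. Its means were 2.52 in WT and 47.1 in rd6, so it passed the filter through rd6 alone. With so few reads in WT, the added 1 bears on the size of this log2 fold change. *Vav1*, a guanine nucleotide exchange factor, had one of 2.74 (SE 0.33), *Btk*, a tyrosine kinase, of 2.65 (SE 0.34) and *Lcp2*, the scaffold SLP-76, of 2.51 (SE 0.33), and in these 4 genes all rd6 libraries were above all WT libraries. *Syk*, the kinase that binds phosphorylated TYROBP (chosen after its values were seen), changed less, with a log2 fold change of 1.10 (SE 0.31, limma *q* = 0.0232; edgeR *q* = 0.0707), and WT replicate 4 had 228 normalized counts of it, above all 6 rd6 libraries. *Adam10* and *Adam17*, the sheddases that cut TREM2 from the surface (chosen likewise), had log2 fold changes of -0.07 (SE 0.05) and 0.07 (SE 0.06).

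In the pathway of *Clec7a*, 2 of 10 genes were called higher and 0 lower (limma, edgeR and DESeq2; 2 higher and 1 lower at an unadjusted p below 0.05 in each). They were *Fcer1g*, an adaptor related to *Tyrobp*, with a log2 fold change of 2.66 (SE 0.33, limma *q* = 9.2e-05), and *Card9*, the scaffold of Dectin-1 signalling, with one of 1.31 (SE 0.28, limma *q* = 0.00474). Among the partners and relatives of *Itgax*, 3 of 5 were called higher and 0 lower (limma; 4 higher and 0 lower at an unadjusted p below 0.05, with 2 higher and 0 lower by edgeR and by DESeq2). *Itgb2*, the beta2 subunit with which CD11c pairs, had a log2 fold change of 2.65 (SE 0.22, limma *q* = 3.4e-06), close to the 2.48 of *Itgax* itself. *Itgam* and *Itgal*, which encode the alpha subunits CD11b and CD11a, had log2 fold changes of 2.59 (SE 0.74) and 0.95 (SE 0.23).

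Beyond the 10 genes, 13 of 35 other disease-associated microglia genes were called higher and 0 lower (limma; 26 higher and 1 lower at an unadjusted p below 0.05, with 11 called higher by edgeR and 13 by DESeq2, and 0 lower by either), with a list median of 0.67. The largest changes in limma were those of *Mamdc2*, an extracellular matrix protein (log2 fold change 2.82, SE 0.29), *Itgb2*, *Fabp5* and *Ccl3*, a chemokine that reached a mean of 23.9 normalized counts (2.42, SE 0.47). The called genes with a mean of at least 1000 were *Lyz2*, lysozyme (1.77, SE 0.22), *H2-D1*, an MHC class I heavy chain whose near-identical relatives make its reads uncertain (1.26, SE 0.18), and *Cd9*, a tetraspanin (0.89, SE 0.08). *Ctsd*, a lysosomal protease of the same list that was abundant in both groups (chosen after its values were seen), had means of 91977 in WT and 98348 in rd6 and a log2 fold change of 0.10 (SE 0.13).

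Genes of resting microglia, which fall in the disease-associated state as it is known from brain, were also higher in rd6. Of 15 tested, 11 were called higher and 0 lower (limma, edgeR and DESeq2; 12 higher and 1 lower at an unadjusted p below 0.05 in each), with a list median of 1.64. *P2ry13* and *P2ry12*, receptors for extracellular nucleotides, had log2 fold changes of 4.67 (SE 0.29) and 4.23 (SE 0.25), *Cx3cr1*, the fractalkine receptor, of 3.44 (SE 0.30) and *Gpr34*, a receptor for lysophosphatidylserine, of 3.39 (SE 0.26). *P2ry12* ranged from 8.86 to 17.6 normalized counts in WT and from 123 to 378 in rd6. The rises of *P2ry13* and *P2ry12* were thus of the size of those of *Trem2* and *Tyrobp*.

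**Figure D3:**
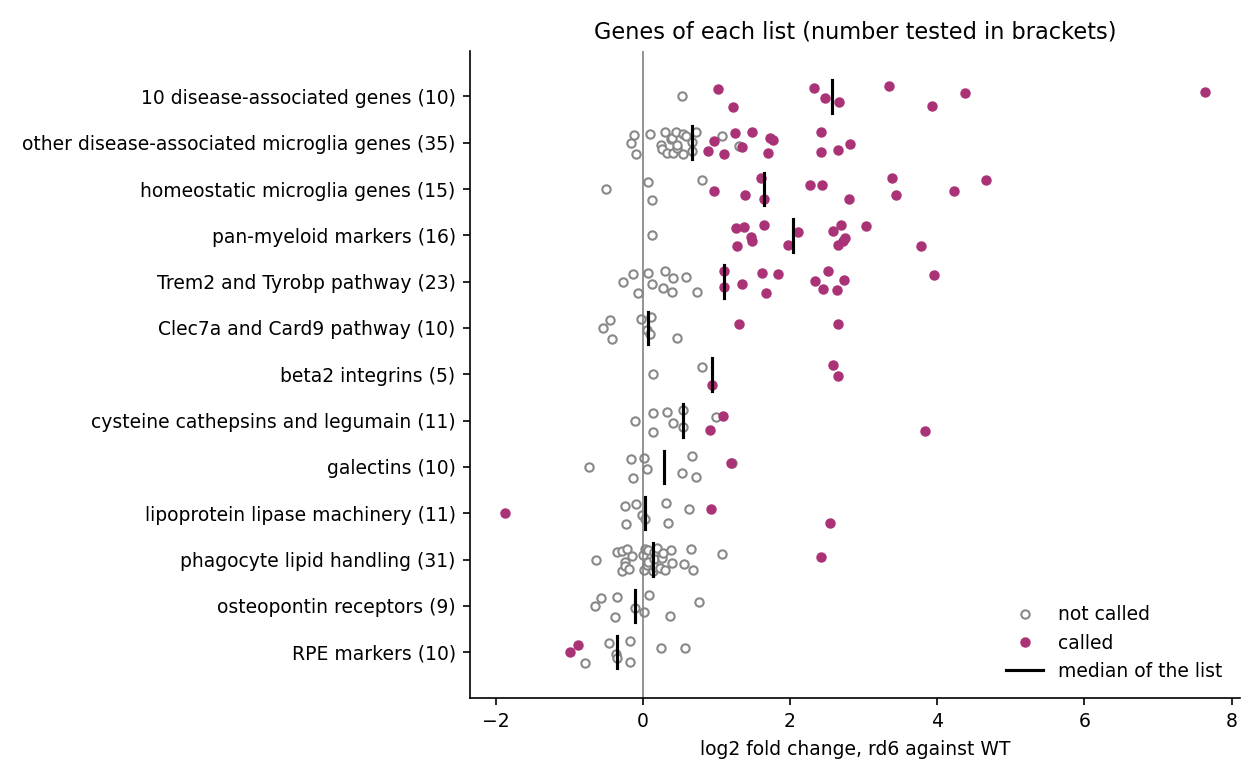
Log2 fold change of each tested gene by list, filled where called at *q* below 0.05 and at least 1.75-fold, with a bar at the median of the list. The 10 disease-associated genes, resting microglia genes and pan-myeloid markers lie mostly to the right of 0 (medians 2.57, 1.64 and 2.04), whereas genes around lipoprotein lipase and phagocyte lipid handling lie around 0 (medians 0.03 and 0.14).

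General markers of myeloid cells moved as well. Of 16 such genes 15 were called higher and 0 lower in limma (14 higher and 0 lower by edgeR and by DESeq2), with a list median of 2.04, the largest changes being those of *Ly86* (3.77, SE 0.36), *Laptm5* (3.03, SE 0.25) and *Aif1* (2.75, SE 0.44). The exception was *Csf1r*, the receptor for CSF1 and a defining marker of the lineage (named after its values were seen), which had 12921 to 18698 normalized counts in WT and 16200.3 to 20851 in rd6 (log2 fold change 0.12, SE 0.10, limma *q* = 0.385). The mean log2 level of the 16 markers ranged from 5.92 to 7.24 in WT and from 7.84 to 8.61 in rd6, a difference of 2.06 or 4.17-fold (two-sided exact permutation p = 0.00216 for 6 against 6). WT replicate 6 had the 7.24, the others being at most 6.42, and it was also the highest WT library for *Cst7*, *Trem2*, *Tyrobp* and *Gpnmb*.

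Markers of other blood cells and of macrophages outside the retina were summed in the same way. Of the neutrophil list, 4 of 9 passed the filter and 2 were called higher, *S100a8*, a calcium-binding protein of granulocytes (mean 3.32 normalized counts in WT and 38.4 in rd6), and *Csf3r*, the receptor for G-CSF (18.7 and 175). DESeq2, which tested 8 of the list, called 3. The summed neutrophil list ranged from 27.7 to 579.8 in WT, WT replicate 4 being the highest, and from 258 to 1050.1 in rd6. Of dendritic cell markers and of T and NK cell markers 1 gene each passed the filter and 0 were called by limma, edgeR or DESeq2 (0 at an unadjusted p below 0.05 in limma, and in DESeq2, on all genes of the lists, 0 dendritic and 4 higher and 1 lower T and NK genes). The dendritic list summed to 174 to 284 in WT and 199.8 to 394 in rd6, and the T and NK list to 22.7 to 57 in WT and 24.9 to 94.8 in rd6. Of border and choroidal macrophage markers 2 of 9 were called higher (1 by edgeR and 1 by DESeq2), *Ms4a7* and *F13a1* (log2 fold changes 1.47, SE 0.28, and 0.83, SE 0.27), and of monocyte markers 0 of 6 were called higher (limma; 2 were at an unadjusted p below 0.05, 1 by edgeR and 2 by DESeq2 were called). The border and choroidal list summed to 739 to 3529 in WT and 940.5 to 7067 in rd6, and the monocyte list to 1004 to 4596 in WT and 1133 to 2857 in rd6, and both overlapped between the groups. Endothelial markers were called higher for 4 of 8 (5 by edgeR and by DESeq2), and all 8 were higher at an unadjusted p below 0.05 by each tool. They were led by the junction protein gene *Cldn5* (log2 fold change 1.14, SE 0.25) and by *Plvap*, a protein of fenestrated capillaries (0.93, SE 0.21), with a list median of 0.80. Of 8 fibroblast and mural markers 0 were called higher and 1 lower by each tool, in limma *Pdgfra*. At an unadjusted p below 0.05, 0 were higher and 4 lower in limma, and 1 higher and 4 lower in edgeR and in DESeq2. The part of any of these in the levels of the 10 genes was not tested.

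The last comparison asked whether a gene rose beyond the general myeloid markers, by subtracting in each library the mean log2 level of those 16 markers before the fit. After this subtraction 5 of the 10 genes were higher in rd6 at limma *q* below 0.05, where 0.422% of all genes tested were and 95.8% were lower. The reference itself rose by 2.06 in rd6, so its subtraction lowers every gene that did not rise. The 0.422% is therefore no background for myeloid genes. Of the 16 markers that form the reference, 6 were higher on this scale too, as were 2 of 4 neutrophil genes. The 5 were *Cst7* with a relative log2 difference of 5.58 (SE 0.34, limma *q* = 5.6e-12), *Trem2* with 2.31 (SE 0.26, *q* = 3.1e-08), *Tyrobp* with 1.88 (SE 0.23, *q* = 5.03e-08), *Clec7a* with 1.29 (SE 0.36, *q* = 0.00154) and *Cd68* with 0.61 (SE 0.26, *q* = 0.0263). The value for *Cst7* depended on the number added before the log, being 3.95 with 10 and 6.05 with 0.1. *Cst7*, *Trem2* and *Tyrobp* stayed separated between the groups (two-sided exact permutation p = 0.00216 each), and *Clec7a* and *Cd68* overlapped (two-sided exact permutation p = 0.00433 and p = 0.00866). Every gene had the same reference subtracted and shares its spread, so limma *q* on this scale does not measure a gene's own spread alone. For *Lgals3* and *Lpl* limma *q* was 0.00683 and 0.0205, where the two-sided exact permutation p was 0.0628 and 0.0779. *Cd68* missed the threshold without rd6 replicate 4, 5 or 6, with relative differences of 0.59, 0.59 and 0.53 (limma *q* = 0.0502, 0.0504 and 0.077), and without the 3 libraries highest in ocular surface markers, with 0.66 (*q* = 0.0568). With *Csf1r* left out of the reference the difference was 0.48 (*q* = 0.0911), and with *Aif1*, *Ptprc* and *Laptm5* alone as the reference it was 0.25 (*q* = 0.431). On the same scale 5 of 15 resting microglia genes and 1 of 35 other disease-associated genes were higher.

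*Itgax* and *Spp1* were not distinguished from the myeloid reference, with relative differences of 0.42 (SE 0.38, limma *q* = 0.289) and 0.26 (SE 0.28, limma *q* = 0.368). *Gpnmb*, *Lgals3* and *Lpl* had relative differences of -1.04 (SE 0.22), -1.53 (SE 0.52) and -0.83 (SE 0.33). As 95.8% of all genes tested were lower on this scale, nothing is read from that direction. A level relative to myeloid markers is a ratio and does not say which of its terms changed per cell.

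**Figure D4:**
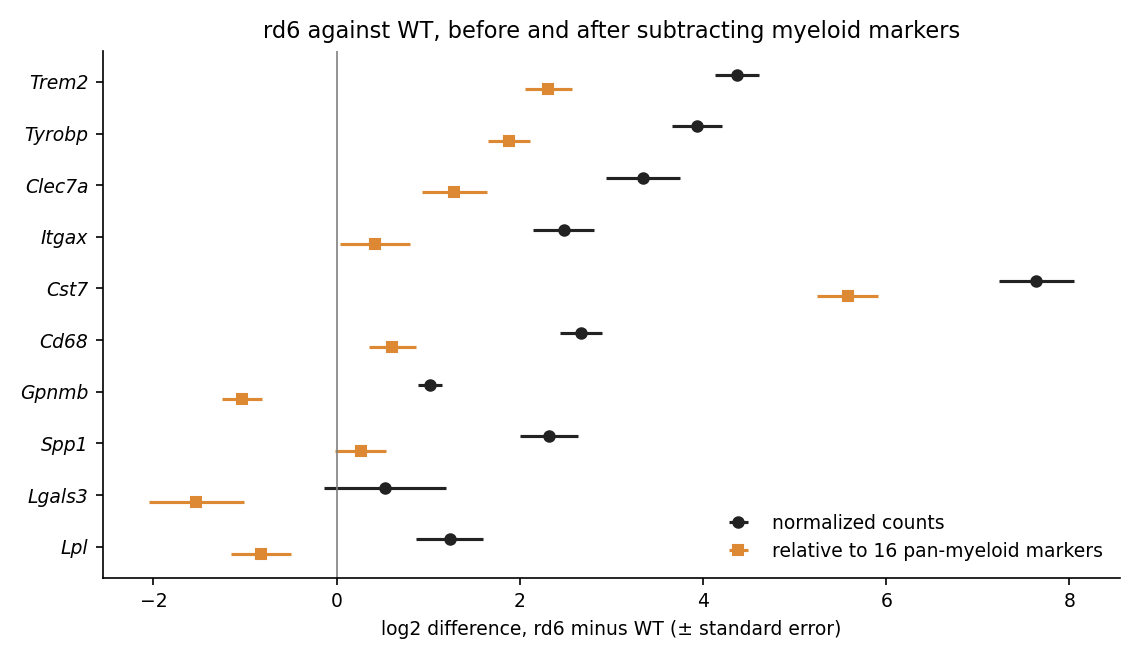
Log2 difference between rd6 and WT (points) and its standard error (bars), for normalized counts (black circles) and after subtracting the mean of 16 pan-myeloid markers in each library (orange squares). *Cst7*, *Trem2*, *Tyrobp* and *Clec7a* stay clear of 0 after the subtraction (5.58, 2.31, 1.88 and 1.29), *Itgax* and *Spp1* lie near it (0.42 and 0.26), and *Gpnmb*, *Lgals3* and *Lpl* fall to negative values.

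Within the rd6 group the phagocyte genes ran together from library to library. For *Cst7*, *Trem2*, *Tyrobp*, *Clec7a*, *Itgax* and *Cd68*, rd6 replicate 4 was among the 3 highest libraries for all 6 genes and rd6 replicates 5 and 6 for 5 genes each, whereas rd6 replicates 1 and 3 were among the 3 lowest for all 6. rd6 replicate 1 was the lowest library for these 6 genes and for *Spp1*. The mean of the myeloid markers followed a like order, being 7.84 in rd6 replicate 1 and 8.08 in replicate 3 against 8.54 to 8.61 in replicates 4 to 6. *Lpl* and *Lgals3* were not part of this, both being highest in rd6 replicate 5, and *Lgals3* was lowest in rd6 replicate 4. Depth and RNA of other tissues differed between these libraries too. rd6 replicates 1 to 3 had 28907262 to 30078053 reads counted on genes, and replicates 4 to 6 had 31659752 to 32336530. Fibroblast and mural markers summed to 22073 to 23759 normalized counts in replicates 1 to 3 and 11701 to 14852 in replicates 4 to 6. The ocular surface sum was highest in replicates 5 and 1. The part of these differences in the order was not tested, and the order is a description.

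Levels of different genes can be compared per length, as RPKM, the recovered reads scaled to exon length (GENCODE M21) and to the library total. In WT the order was *Gpnmb* with 78.9 ± 18.2 RPKM (SD, n = 6), *Spp1* with 18.3, *Lgals3* with 17.6, *Tyrobp* with 6.73, *Cd68* with 4.54, *Lpl* with 1.5, *Clec7a* with 0.348, *Trem2* with 0.335, *Cst7* with 0.102 and *Itgax* with 0.0793. Neighbours in this order were separated in all libraries only between *Gpnmb* and *Spp1*, between *Cd68* and *Lpl*, and between *Lpl* and *Clec7a*. The receptor *Trem2* was thus scarce in WT RPE beside its adaptor *Tyrobp*.

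In rd6 *Gpnmb* still led with 164 ± 19.3 RPKM (SD, n = 6), followed by *Tyrobp* with 107 ± 34, *Spp1* with 91.8, *Cd68* with 30.9, *Cst7* with 26.6, *Lgals3* with 21.5, *Trem2* with 7.57, *Lpl* with 3.48, *Clec7a* with 3.42 and *Itgax* with 0.453. Only *Spp1* and *Cd68*, and *Clec7a* and *Itgax*, did not overlap as neighbours. *Cst7* moved from the ninth place to the fifth and *Tyrobp* from the fourth to the second, while *Lpl* went from the sixth to the eighth.

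**Figure D5:**
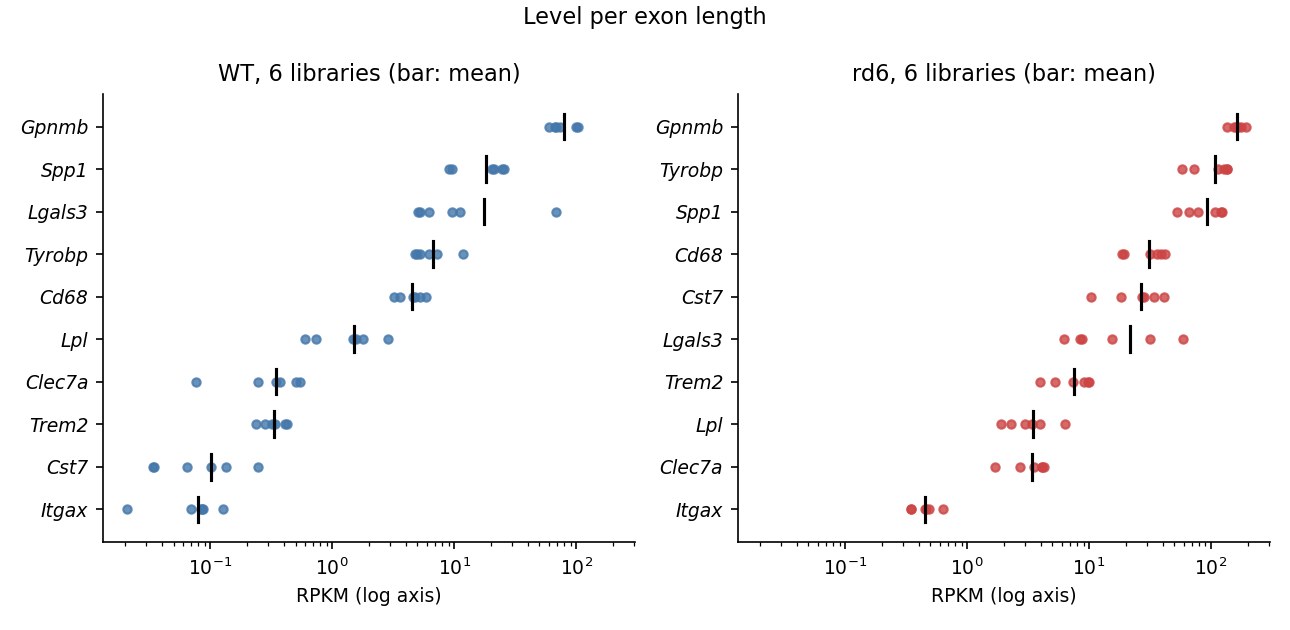
Level per exon length (RPKM, log axis) of the 10 genes in the 6 WT libraries (left) and 6 rd6 libraries (right), each panel ordered by its mean, which a bar marks. *Gpnmb* is highest in both (78.9 in WT and 164 in rd6) and *Itgax* lowest (0.0793 and 0.453), and *Cst7* climbs from 0.102 to 26.6.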

How the data were processed

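RNA-seq of RPE was compared between 6 rd6 and 6 WT libraries. Per the labels and the paper's methods, the authors made stranded total-RNA libraries, used Rsubread with standard settings on mm10 (GRCm38), and normalized with DESeq2. The deposited values are a signal, reads counted on a gene over the size factor of its library, and are called normalized counts here. The authors also deposited log2 fold changes, Wald statistics (a score) and p-values of their own comparison, none of which were used. The table has 28596 entries for 28591 genes, and 5 entries of 4 repeated identifiers were dropped. Read counts were recovered from the step between values (100% whole in every library, tolerance 0.001 reads), and no 2 libraries of the 66 pairs were alike within sampling noise (lowest chi-square per gene 9.24).

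The main test was limma 3.58.1 (R 4.3.3, trended eBayes) on log2(normalized counts + 1), with genotype as the only term, for the 17768 genes averaging 10 or more. That mean was over both genotypes, so a gene could pass through 1 of them alone. The added 1 understates fold changes of low genes. Relative to myeloid markers, genes were called at *q* below 0.05 alone. Alternatives were edgeR 4.0.16 and DESeq2 1.42.0 on recovered reads, other pseudocounts, filters and scalings, a replicate block, and leaving out each library. Plain limma, edgeR with TMM and DESeq2 were tested on simulated data. The fit relative to myeloid markers and the other alternatives were not. Coordinates and exon lengths are from GENCODE M21 (GRCm38). Whether counting used strand is not given in the sources used here. The 10 genes, lists and motifs were chosen with earlier results of these data known. Named from the lists were the called genes with the largest changes (at most 4 in each direction, 3 for cell type markers) or a mean of at least 1000, and any others are said to be chosen after their values were seen. Some genes of the lists are not reported here.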

Additional observations from a re-analysis of the deposited data

Results flagged for a closer look

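Within a genotype, the highest or lowest of the 6 libraries was compared with its nearest neighbour as a share of the group's range (Dixon's ratio, 95% critical value 0.625), in 20 groups of 10 genes and 2 genotypes. Chance alone marks about 1 in 20 groups, and 2 of 20 were marked. *Tyrobp* in WT was marked by replicate 6, with 253 normalized counts where the nearest library had 141 (ratio 0.732). The same library had the highest mean of the pan-myeloid markers among WT, 7.24 on the log2 scale against at most 6.42, and the part of these cells in the value was not tested. Without WT replicate 6 the log2 fold change of *Tyrobp* was 4.12 (limma *q* = 4.6e-07). *Lgals3* in WT was marked by replicate 4, with 3716 normalized counts where the nearest library had 632 (ratio 0.901). That library also had the highest level of *Krt5*, a keratin of the ocular surface, at 63798 normalized counts, and of *Krt12*, the keratin of the cornea, at 69564 (both chosen after their values were seen).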

How the results depend on the processing

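The number of the 10 genes called higher was 9 under most of 23 alternatives, and its lowest value was 6, where at least 10 normalized counts in every library were required and *Cst7*, *Itgax* and *Clec7a* were no longer among the genes tested. That filter also left 7 of the resting microglia genes and 6 of the *Trem2* and *Tyrobp* pathway called, since fewer genes were tested. The phagocyte lipid list had 0 calls with edgeR under TMM and under RLE, 2 without a filter and 1 to 3 when 1 library was left out. With 1 library left out, 8 or 9 of the 10 genes were called, and 8 were separated each time. On the scale relative to myeloid markers 4 or 5 genes were higher and 2 or 3 lower, and signs turned only for genes without a call: *Itgax* to -0.068 with a pseudocount of 10, and *Spp1* to -0.10 with *Aif1*, *Ptprc* and *Laptm5* as the reference. TMM and upper-quartile rescaling moved the median of all genes by 0.02 and -0.02. The replicate numbers did not pair the samples, as the correlation of deviations within a number ran from -0.743 to 0.315 (mean -0.245). With the number as a block 8 of the 10 genes were called, *Lpl* being lost (limma *q* = 0.0846), among 679 higher and 301 lower genes in all. Of the alternatives, 3 were added after seeing the data, and leaving out the 3 libraries with most ocular surface RNA kept 9 genes called, and 4 on the relative scale, *Cd68* missing the limit (limma *q* = 0.0568) at a relative difference of 0.66 against 0.61 with all libraries. Depth limited *Cst7* and *Itgax* in WT, which rested on as few as 1 and 3 reads in a library.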
